A study of Aspergillus nidulans with 4 samples.

Results

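The autophagy and vacuole genes of the filamentous fungus Aspergillus nidulans were followed by RNA-seq in mycelium grown on 2 carbon and 2 nitrogen sources. A gene was taken in when its description in any deposited sense table held the word part autophag, vacuole or vacuolar, and set aside when it also named a peptidase, a protease, the proteasome or an amino acid transporter. The choice used no measured value. It gave 159 of 7752 genes with sense counts, of which 41 had autophag in the description (the autophagy genes) and 118 had only vacuole or vacuolar (the vacuole genes), while 6 genes were set aside. Of the 159 genes, 155 had a count in all 4 libraries and 4 had one in 3 libraries.

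All groups were strain biA1, the wild type of the series, which carries a mutation that makes the fungus need biotin. Each group was 1 library made from RNA of 3 cultures combined, grown in minimal medium for 9 to 12 h at 37 °C. The sugar was 0.1% fructose or 1% glucose, and the nitrogen source urea or ammonium tartrate at 10 mM. This gives fructose-urea, fructose-ammonium, glucose-urea and glucose-ammonium mycelium. The labels call fructose and urea non-repressing, and glucose and ammonium repressing, for carbon and nitrogen metabolism. Urea is given as 10 mM in the sample labels and as 5 mM in the growth protocol. The nitrogen comparisons also differ in tartrate, and the carbon comparisons in the amount of sugar, and these cannot be told apart.

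Autophagy is the process by which a cell wraps part of its cytoplasm in a double membrane and delivers it to the vacuole, the acidic, hydrolase-filled compartment in which fungi break down and store material. It is known as a response to starvation: the TOR kinase holds it back in rich medium, the Atg1 kinase starts it, Atg2 and phosphoinositide-binding proteins help the membrane grow, the ubiquitin-like protein Atg8 is attached to lipid on that membrane, and the lipase Atg15 opens the inner vesicle once it lies in the vacuole. The vacuole itself is kept acidic by the V-type ATPase and is supplied by sorting complexes such as ESCRT, CORVET and HOPS, together with Rab GTPases and SNARE proteins that fuse membranes. Carbon starvation of filamentous fungi also leads to autolysis, in which hydrolases degrade the hyphae.

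The descriptions of the 41 autophagy genes fell into 3 kinds, which were separated after they had been read. A role in autophagy was given for 20 genes. Another 15 genes were described by how their transcript or protein responded to autophagy in earlier studies, 10 as induced and 5 as repressed. The response phrase took precedence, so pho8, which also has a predicted role in autophagy, is among the 15 and not the 20. The remaining 6 genes were found only through the phrase "non-autophagic", used of vacuole fusion. Of the 118 vacuole genes, 7 named the V-type ATPase or its assembly, 33 matched words for sorting or fusion, 11 were transporters, 5 named vacuole shape or organization, and 62 matched none of these, most of them proteins placed at the vacuole membrane. The calcium pump gene pmcA (AN1189) matched the ATPase words and was moved by hand to the transporters.

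Levels are sense read counts scaled to the summed sense counts of the library (CPM), and a ratio is the log2 ratio of 2 libraries after TMM scaling with a prior count of 1, urea over ammonium or fructose over glucose. Ratios are followed by their exact 95% interval, which covers counting error only. With 1 library per group no spread between cultures was measured, and no p-value of the conditions could be computed. Sense counts summed to 812637 in fructose-urea, 547041 in fructose-ammonium, 1698692 in glucose-urea and 2606076 in glucose-ammonium mycelium. A count of 0 is read against 3 counts, which is 3.69 CPM in fructose-urea, 5.48 CPM in fructose-ammonium, 1.77 CPM in glucose-urea and 1.15 CPM in glucose-ammonium mycelium. The lowest level of the higher library of any listed gene was 10.4 CPM, so a gene that was low in both libraries of a table is not listed there. Levels of different genes are not compared, since transcript lengths were not used here. In whole mycelium, fewer cells of a type and less RNA per cell cannot be told apart.

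The 20 genes with a role in autophagy together took 0.451% of the sense counts in fructose-urea mycelium (exact 95% interval 0.437 to 0.466), 0.261% (0.248 to 0.275) in fructose-ammonium, 0.197% (0.191 to 0.204) in glucose-urea and 0.209% (0.203 to 0.215) in glucose-ammonium mycelium. The fructose-urea share stood above the other 3, and the glucose libraries lay close together. This share weighs genes with many counts most, such as atg2 with 800 of the 3665 counts in fructose-urea. The median level per gene was 132, 102, 82.7 and 100 CPM in the same order of libraries. AN2093, AN4666, AN5174, AN6360, AN7462 and AN10190 were not highest in fructose-urea. Shares use total counts, a scaling in which all genes had median ratios of 0.25 for nitrogen in fructose and 0.29 for carbon with urea. The genes with the highest ratios of fructose-urea over both fructose-ammonium and glucose-urea were atg15 and atg11. The names atg2, atg11 and atg15 come from the RefSeq gene table, matched by locus tag.

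The AN5919 gene, named atg15 in RefSeq and encoding the lipase that opens autophagic bodies in yeast, had 132 CPM in fructose-urea, 18.3 CPM in fructose-ammonium, 17.7 CPM in glucose-urea and 14.6 CPM in glucose-ammonium mycelium. Only the fructose-urea library was high. The ratio was 2.56 (1.71 to 3.75) for urea over ammonium in fructose and 2.58 (2.03 to 3.27) for fructose over glucose with urea, against 0.32 (-0.41 to 1.06) for urea over ammonium in glucose and 0.27 (-0.89 to 1.32) for fructose over glucose with ammonium. In the authors' deposited table its FDR was 0.00763 for nitrogen in fructose and 0.00138 for carbon with urea, under an assumed and not measured spread between cultures.

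AN2887 (atg11 in RefSeq), a scaffold of selective autophagy in yeast, had 463 CPM in fructose-urea, 137 CPM in fructose-ammonium, 81.2 CPM in glucose-urea and 133 CPM in glucose-ammonium mycelium. It was again highest in fructose-urea, and in glucose it was lower with urea than with ammonium. The ratios were 1.55 (1.19 to 1.93) for nitrogen in fructose, -0.66 (-0.96 to -0.37) for nitrogen in glucose and 2.23 (1.96 to 2.53) for carbon with urea. AN5491 (atg2), a lipid carrier to the growing membrane, had 984 CPM in fructose-urea, 528 CPM in fructose-ammonium, 252 CPM in glucose-urea and 293 CPM in glucose-ammonium mycelium. Both fructose libraries stood above both glucose libraries, with carbon ratios of 1.69 (1.53 to 1.87) with urea and 0.81 (0.61 to 1.00) with ammonium.

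The Atg8 system showed a smaller difference for its core gene and the opposite one for a predicted ligase. The atgH gene (AN5131), the Aspergillus nidulans Atg8, had 297 CPM in fructose-urea, 124 CPM in fructose-ammonium, 161 CPM in glucose-urea and 127 CPM in glucose-ammonium mycelium. Its nitrogen ratio was 1.05 (0.66 to 1.47) in fructose and 0.39 (0.16 to 0.63) in glucose, and its carbon ratio was 0.61 (0.36 to 0.87) with urea. AN11004, whose orthologs have Atg8 ligase activity, had 268, 212, 164 and 151 CPM in fructose-urea, fructose-ammonium, glucose-urea and glucose-ammonium mycelium, and its ratios lay between 0.14 and 0.45. AN5174, described with the same activity, had 24.6 CPM in fructose-urea, 64.0 CPM in fructose-ammonium, 33.0 CPM in glucose-urea and 27.2 CPM in glucose-ammonium mycelium. It was highest in fructose-ammonium, with a nitrogen ratio of -1.52 (-2.45 to -0.74) in fructose and a carbon ratio of 1.17 (0.56 to 1.79) with ammonium. This locus had more antisense than sense reads in 3 libraries, as given with the antisense counts.

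**Figure D1:**
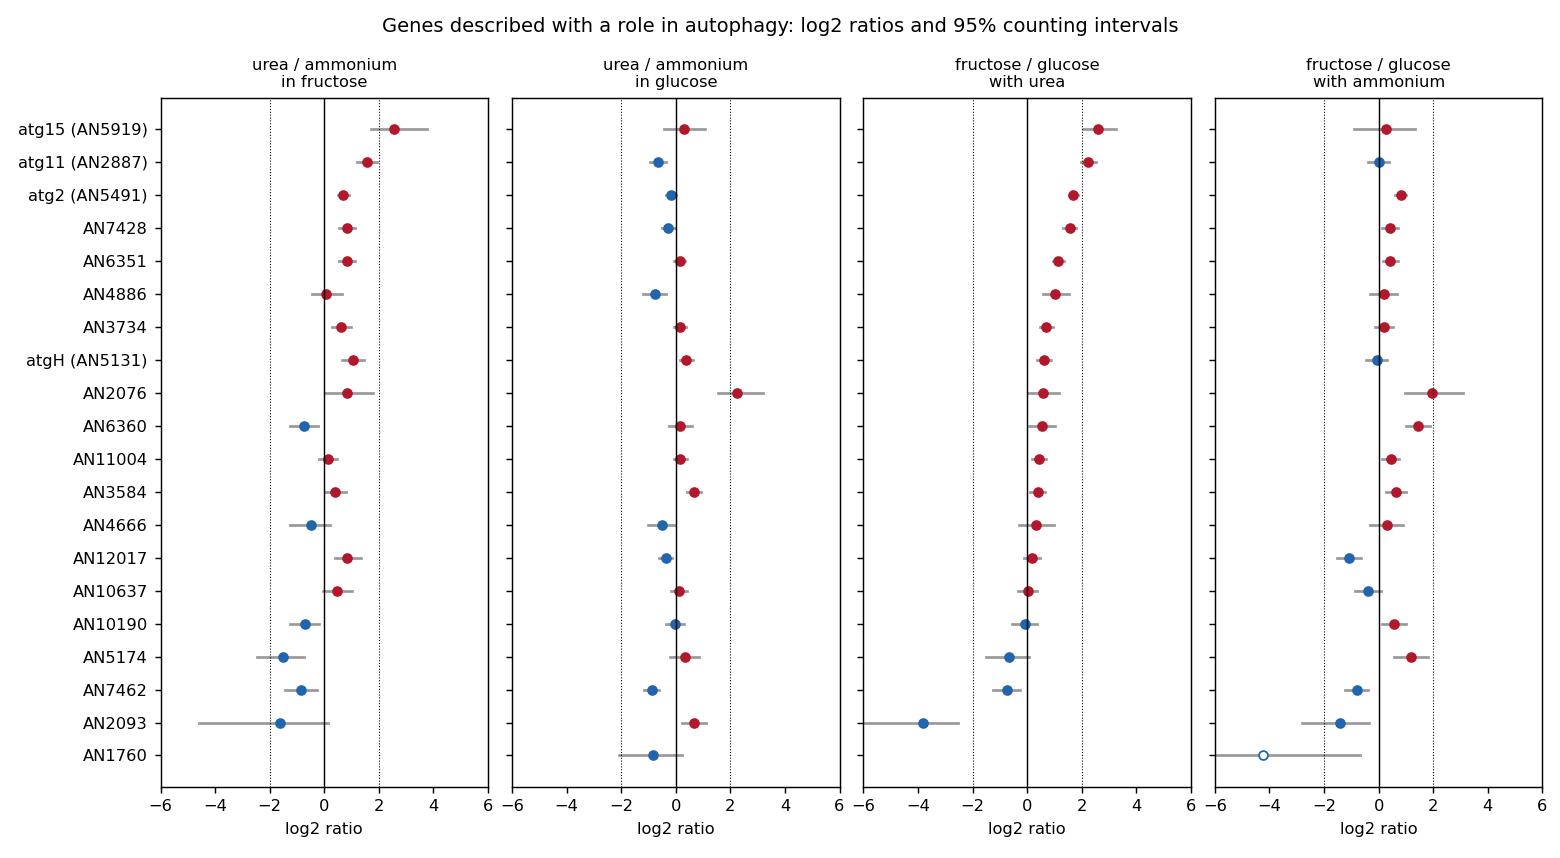
Log2 ratios (x axis) of the 20 genes described with a role in autophagy (rows), in 4 comparisons (panels), with exact 95% counting intervals as grey bars and dotted lines at 4-fold. Red points are above 0 and blue points below it, open points rest on a count of 0, and bars that reach the edge go on beyond it. In the fructose over glucose panel with urea, atg15 at 2.58 and atg11 at 2.23 lie above 4-fold and AN2093 at -3.82 below it.

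Of 3 phosphoinositide-binding members, 2 were higher in fructose-urea than in glucose-urea beyond counting error, beside 2570 of 7135 over all genes. AN6351, tied to macroautophagy, had 548, 269, 206 and 193 CPM in fructose-urea, fructose-ammonium, glucose-urea and glucose-ammonium mycelium, with a carbon ratio of 1.14 (0.94 to 1.35) with urea. AN3584, tied to selective forms of autophagy, had 241, 159, 152 and 99.0 CPM in the same libraries and a ratio of 0.39 (0.12 to 0.67). For AN4666 the interval of that ratio, 0.33 (-0.32 to 0.97), included 0. AN7428, whose orthologs act in autophagy and the response to nitrogen starvation, had 480 CPM in fructose-urea, 234 CPM in fructose-ammonium, 135 CPM in glucose-urea and 170 CPM in glucose-ammonium mycelium. Its ratios were 0.83 (0.55 to 1.14) for nitrogen in fructose and 1.55 (1.32 to 1.80) for carbon with urea. AN3734, listed as a possible pseudogene similar to an autophagy-related protein, had corresponding ratios of 0.62 (0.29 to 0.97) and 0.70 (0.46 to 0.95).

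The remaining members with a described role in autophagy were more mixed. AN2093, whose orthologs belong to the Mon1-Ccz1 complex that activates the Rab7 GTPase before fusion with the vacuole, had 3 and 7 sense counts in fructose-urea and fructose-ammonium mycelium, against 90 and 89 counts in glucose-urea and glucose-ammonium mycelium. Both fructose libraries were low, and the carbon ratio was -3.82 (-6.42 to -2.52) with urea and -1.41 (-2.82 to -0.36) with ammonium. AN2076, whose orthologs respond to nitrogen starvation, had 61.5 CPM in fructose-urea, 29.2 CPM in fructose-ammonium, 33.6 CPM in glucose-urea and 6.91 CPM in glucose-ammonium mycelium. It was highest in fructose-urea and lowest in glucose-ammonium, and its nitrogen ratio in glucose was 2.26 (1.55 to 3.18), from 57 counts with urea and 18 with ammonium. AN1760, with orthologs of the same kind, was not listed with a fructose-urea count and had 0, 10 and 29 counts in fructose-ammonium, glucose-urea and glucose-ammonium mycelium, which makes it at least 2.09-fold lower in fructose-ammonium than in glucose-ammonium.

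Of the Golgi transport complex members, AN7462 was lower with urea than with ammonium and lower on fructose than on glucose in all 4 comparisons, with ratios between -0.88 and -0.74, while AN4886 had 1.03 (0.56 to 1.53) for carbon with urea and -0.75 (-1.18 to -0.35) for nitrogen in glucose. The polyphosphate and microautophagy genes AN10637 and AN12017 had nitrogen ratios in fructose of 0.48 (-0.04 to 1.03) and 0.84 (0.38 to 1.36). AN12017 also had a carbon ratio of -1.07 (-1.54 to -0.65) with ammonium. AN10190 and AN6360, which are known only by predicted domains, had nitrogen ratios in fructose of -0.71 (-1.26 to -0.19) and -0.74 (-1.25 to -0.24), and AN6360 had a carbon ratio of 1.43 (0.98 to 1.88) with ammonium.

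The 2 further atg genes named by RefSeq among the listed genes lay outside the word rule and were looked up after the values above had been seen. The atg1 gene (AN1632), the kinase that starts autophagy, had 193 CPM in fructose-urea, 53.0 CPM in fructose-ammonium, 47.7 CPM in glucose-urea and 36.5 CPM in glucose-ammonium mycelium. The atg26 gene (AN4601), a sterol glucosyltransferase, had 210, 56.7, 30.6 and 35.7 CPM in the same libraries. Both were highest in fructose-urea, with nitrogen ratios in fructose of 1.64 and 1.67 and carbon ratios with urea of 1.73 and 2.48.

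The 15 genes described by a response to autophagy spread more widely than the genes with a role in it. The 5 genes annotated as repressed by autophagy had ratios below 0 for nitrogen in fructose and for carbon with urea, prxA and trpB by far more than the other 3. The intervals of all 5 lay below 0 in both, beside 2140 of 7203 and 2660 of 7135 over all genes. Both comparisons use the fructose-urea library, so these counts are not independent. The prxA gene (AN8692), a thioredoxin-dependent peroxidase, had 7.38 CPM in fructose-urea, 175 CPM in fructose-ammonium, 315 CPM in glucose-urea and 290 CPM in glucose-ammonium mycelium. It had 6 counts in fructose-urea alone, and the ratios were -4.51 (-6.25 to -3.60) for nitrogen in fructose and -5.52 (-7.14 to -4.55) for carbon with urea. The trpB gene (AN6231), tryptophan synthase, had 12.3 CPM in fructose-urea, 64.0 CPM in fructose-ammonium, 208 CPM in glucose-urea and 117 CPM in glucose-ammonium mycelium, with a carbon ratio of -4.25 (-5.42 to -3.45) with urea. The co-chaperone gene cdc37 (AN2051) had a nitrogen ratio in fructose of -1.55 (-1.86 to -1.25), the chitin precursor gene ungA (AN9094) one of -0.44 (-0.64 to -0.24), and nmt1 (AN8009), an ortholog of a yeast thiamine synthesis gene, one of -0.49 (-0.57 to -0.40). The nmt1 gene had 3289, 4012, 3855 and 4843 CPM and ungA 555, 656, 798 and 1046 CPM in fructose-urea, fructose-ammonium, glucose-urea and glucose-ammonium mycelium, lowest in fructose-urea in both cases. The median of the 5 was -1.55 for nitrogen in fructose, -0.26 for nitrogen in glucose, -0.79 for carbon with urea and -0.72 for carbon with ammonium, beside 0.07, 0.00, -0.03 and -0.11 for all genes in the same comparisons.

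The 10 genes annotated as induced by autophagy went both ways. The aldA gene (AN0554), an aldehyde dehydrogenase of ethanol use, had 4408 CPM in fructose-urea, 596 CPM in fructose-ammonium, 107 CPM in glucose-urea and 107 CPM in glucose-ammonium mycelium. Its ratios were 2.69 (2.52 to 2.86) for nitrogen in fructose, 5.08 (4.88 to 5.32) for carbon with urea and 2.43 (2.20 to 2.67) for carbon with ammonium, and in glucose the nitrogen ratio of 0.06 (-0.22 to 0.33) included 0. AN8223, linked to carbon starvation, had 39, 1, 7 and 64 counts in fructose-urea, fructose-ammonium, glucose-urea and glucose-ammonium mycelium, so that its 2 highest libraries share neither sugar nor nitrogen source. The beta-glucosidase gene bglA (AN4102) had 416, 269, 85.9 and 79.1 CPM in those libraries, with carbon ratios of 2.00 (1.72 to 2.30) with urea and 1.71 (1.41 to 2.03) with ammonium. AN7298, of unknown function, had carbon ratios of 1.89 (1.43 to 2.42) and 1.13 (0.58 to 1.69), and pho8 (AN10563), a vacuolar phosphatase with a predicted role in autophagy, had 1.17 (0.69 to 1.70) for nitrogen in fructose and 1.32 (0.97 to 1.68) for carbon with urea.

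Against these, 3 genes annotated as induced were lower in fructose-urea than in each of the other 3 libraries. AN6630, the alpha subunit of the nascent polypeptide-associated complex, had 28.3 CPM in fructose-urea, 98.7 CPM in fructose-ammonium, 393 CPM in glucose-urea and 447 CPM in glucose-ammonium mycelium, with carbon ratios of -4.02 (-4.73 to -3.47) with urea and -2.21 (-2.64 to -1.83) with ammonium. AN6048, an aspartate transaminase, had 494, 1961, 1728 and 2687 CPM in those libraries, and ratios of -2.19 (-2.36 to -2.02) for nitrogen in fructose and -2.07 (-2.23 to -1.93) for carbon with urea. The alpha-glucosidase gene agdB (AN8953) had 59.1 CPM in fructose-urea, 227 CPM in fructose-ammonium, 513 CPM in glucose-urea and 249 CPM in glucose-ammonium mycelium. Its nitrogen ratio was -2.11 (-2.65 to -1.65) in fructose and 1.09 (0.95 to 1.24) in glucose. The 14-3-3 gene artA (AN4501) stayed within 2-fold in all 4 comparisons, as did AN7316, a predicted zinc-dependent hydrolase with 54 counts or fewer per library. AN6630 and agdB are annotated as induced in autophagy set off by rapamycin, and the other 8 in autophagy set off by carbon starvation.

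**Figure D2:**
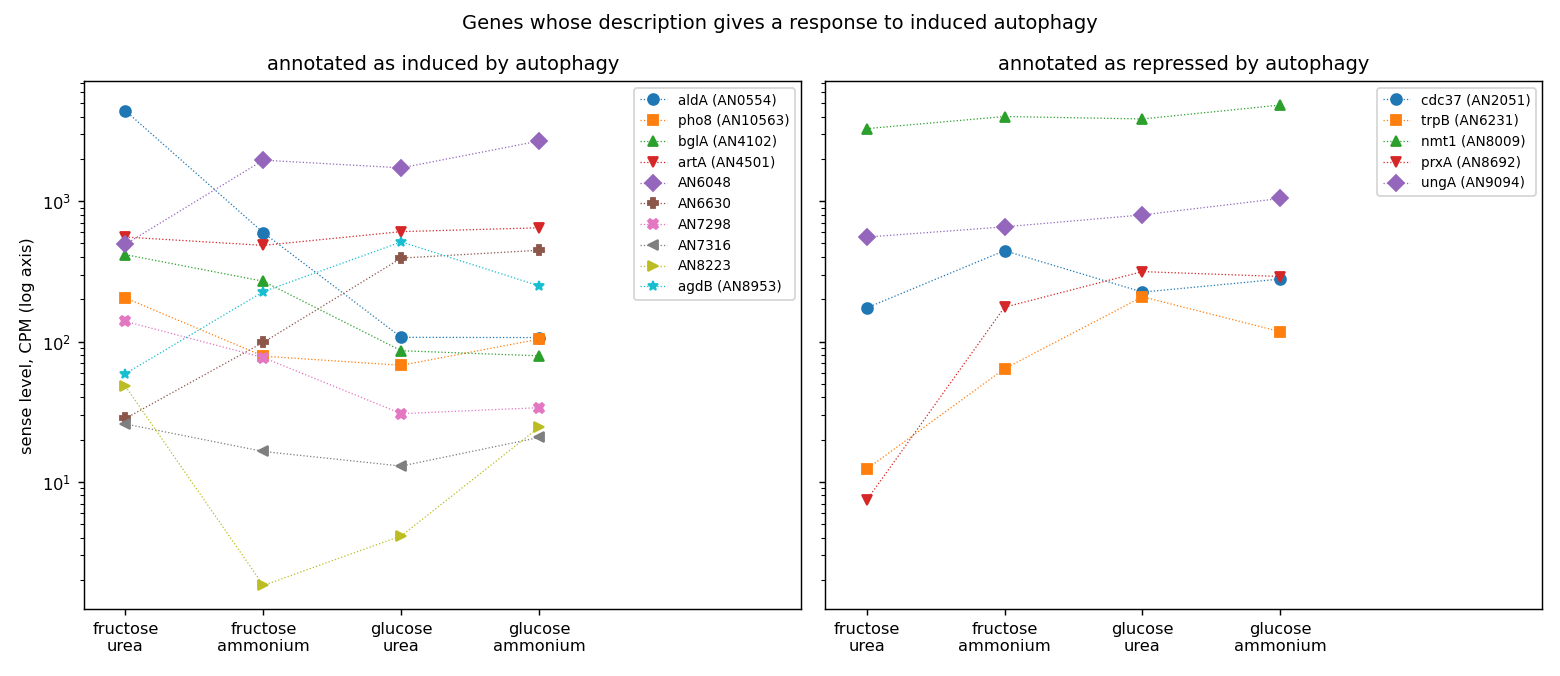
Sense level in CPM (y axis, log scale) of the 15 genes described as induced (left panel) or repressed (right panel) by autophagy, in the 4 libraries (x axis), with 1 marker per library and dotted lines joining the values of 1 gene. The repressed prxA and trpB lie at 7.38 and 12.3 CPM in fructose-urea mycelium, while among the induced genes aldA reaches 4408 CPM there and AN6630 has 28.3 CPM.

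The 6 genes found through non-autophagic vacuole fusion also split. AN8374, whose orthologs carry oligopeptides, had 0 counts in fructose-urea, 53 in fructose-ammonium, 32 in glucose-urea and 58 in glucose-ammonium mycelium. It was at least 30.1-fold lower in fructose-urea than in fructose-ammonium and at least 6.15-fold lower than in glucose-urea, read against 3 counts, and its carbon ratio with ammonium was 2.05 (1.51 to 2.64). AN8488, a SNARE-type fusion protein, had 71 counts in fructose-urea, 8 in fructose-ammonium, 65 in glucose-urea and 116 in glucose-ammonium mycelium. It was lowest in fructose-ammonium, with 2.28 (1.32 to 3.65) for nitrogen in fructose and -1.61 (-2.89 to -0.62) for carbon with ammonium. AN0914 had the same low library, with 1.27 (0.39 to 2.36) and -1.69 (-2.70 to -0.88). AN8795, tied to endosomal transport, had carbon ratios of -1.03 (-1.35 to -0.73) with urea and -1.70 (-2.11 to -1.32) with ammonium. The SNARE gene AN1973 lay within 2-fold throughout, between -0.17 and 0.33.

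Among the vacuole genes, the 7 V-type ATPase genes stayed within 4-fold in all 4 comparisons. Of all genes, 11.4% passed this mark upward and 11.0% downward for nitrogen in fructose. These shares were 14.6% and 15.2% for carbon with urea, and 8.33% and 7.01% for carbon with ammonium. They were 1.34% and 0.535% for nitrogen in glucose. Most genes thus also stayed within 4-fold in each comparison, which with only 7 genes does not set the group apart. The subunit A gene vmaA (AN8021) had 284 CPM in fructose-urea, 188 CPM in fructose-ammonium, 258 CPM in glucose-urea and 277 CPM in glucose-ammonium mycelium. Together the 7 genes took 0.112% of sense counts in fructose-urea (0.105 to 0.120), 0.0733% in fructose-ammonium (0.0663 to 0.0808), 0.0985% in glucose-urea (0.0938 to 0.103) and 0.104% in glucose-ammonium mycelium (0.0999 to 0.108). The fructose-ammonium share was the lowest of the 4. The intervals of 5 of the 7 genes lay above 0 for nitrogen in fructose, beside 2263 of 7203 over all genes. The intervals of 5 lay below 0 for carbon with ammonium, beside 2181 of 6647. Both comparisons use the fructose-ammonium library, so these counts are not independent. The median ratio was 0.48 for nitrogen in fructose, 0.01 for nitrogen in glucose, -0.08 for carbon with urea and -0.81 for carbon with ammonium. The highest and the lowest ratio were both of AN9107, with 1.58 (0.86 to 2.46) for nitrogen in fructose and -1.03 (-1.86 to -0.32) for carbon with ammonium.

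The sorting and fusion genes ranged from -3.55 to 7.86 in ratio, where the upper end rests on a count of 0 and depends on the prior count. It was that of AN8912, which entered this group through the words "cellular fusion" and has orthologs at the Golgi and vacuole membrane. It had 169 counts in fructose-urea and 15 in fructose-ammonium mycelium, against 0 in both glucose libraries. It was at least 97.8-fold higher in fructose-urea than in glucose-urea and at least 23.1-fold higher in fructose-ammonium than in glucose-ammonium, and its nitrogen ratio in fructose was 2.67 (1.96 to 3.59). AN4018, with a role in protein targeting to the vacuole, had 145 CPM in fructose-urea, 16.5 CPM in fructose-ammonium, 17.7 CPM in glucose-urea and 11.9 CPM in glucose-ammonium mycelium. It was high in fructose-urea alone, with ratios of 2.84 (1.97 to 4.11) for nitrogen in fructose and 2.72 (2.18 to 3.40) for carbon with urea.

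The avaB gene (AN10849), similar to the HOPS subunit Vps39 of yeast, had 213 CPM in fructose-urea, 74.9 CPM in fructose-ammonium, 30.0 CPM in glucose-urea and 41.8 CPM in glucose-ammonium mycelium, and a carbon ratio of 2.53 (2.10 to 3.04) with urea. AN1179, predicted to hold back gluconeogenesis and to target proteins to the vacuole, had 76.3, 29.2, 7.65 and 15.3 CPM in those libraries and a carbon ratio of 2.93 (2.17 to 4.04) with urea. In the other direction, the sorting gene vps52 (AN4014) had 8 counts in fructose-urea, 24 in fructose-ammonium, 71 in glucose-urea and 116 in glucose-ammonium mycelium, with -2.19 (-3.72 to -1.15) for nitrogen in fructose and -2.25 (-3.62 to -1.30) for carbon with urea. AN6345, an acyltransferase ortholog of lipid particles, had 18, 2, 73 and 126 counts in the same libraries and the lowest ratio of the group, -3.55 (-6.83 to -1.89) for carbon with ammonium.

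Of the 11 transporter and 5 shape genes, 2 were past 4-fold in a comparison. For nitrogen in fructose 1 transporter was at least 4-fold higher, beside 11.4% of all genes. For carbon with urea 1 shape gene was at least 4-fold lower, beside 15.2% of all genes. AN2289, whose orthologs carry alpha-glucosides, had 215 CPM in fructose-urea, 40.2 CPM in fructose-ammonium, 55.3 CPM in glucose-urea and 44.5 CPM in glucose-ammonium mycelium, with a nitrogen ratio of 2.18 (1.58 to 2.93) in fructose. AN5768, tied to actin and vacuole organization, had 28.3, 45.7, 123 and 47.2 CPM in those libraries and a carbon ratio of -2.35 (-3.08 to -1.76) with urea. The median of the 11 transporters was -0.36 for nitrogen in fructose and 0.28 in glucose, beside 0.07 and 0.00 for all genes. For carbon it was -0.12 with urea and 0.61 with ammonium, beside -0.03 and -0.11. The values of -0.36 and 0.61 both use the fructose-ammonium library, so they are not independent.

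The other vacuole genes past 4-fold were proteins of the vacuole membrane, of lipid metabolism or of trafficking. AN12408 (vac8 in RefSeq), a membrane protein needed for vacuole inheritance in yeast, had 331 CPM in fructose-urea, 56.7 CPM in fructose-ammonium, 46.5 CPM in glucose-urea and 29.2 CPM in glucose-ammonium mycelium. Its ratios were 2.32 (1.81 to 2.93) for nitrogen in fructose and 2.54 (2.20 to 2.94) for carbon with urea. AN0890, placed at the vacuole membrane, had 511, 144, 43.6 and 36.1 CPM in fructose-urea, fructose-ammonium, glucose-urea and glucose-ammonium mycelium, and AN1297, of Golgi to endosome transport, had 194, 54.8, 14.1 and 13.4 CPM. Both were high in the fructose libraries with either nitrogen source, with carbon ratios of 3.26 (2.92 to 3.66) and 3.45 (2.89 to 4.20) with urea and 1.94 (1.51 to 2.41) and 1.94 (1.23 to 2.73) with ammonium.

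AN7437, whose orthologs export amino acids from the vacuole and respond to nitrogen starvation, had 178 CPM in fructose-urea, 32.9 CPM in fructose-ammonium, 52.4 CPM in glucose-urea and 40.3 CPM in glucose-ammonium mycelium. AN5879, a sterol transport protein of the vacuole lumen, had 143, 23.8, 62.4 and 43.0 CPM, and AN0409, a vacuole membrane protein, had 145, 29.2, 66.5 and 92.5 CPM in the same libraries. All 3 were highest in fructose-urea and lowest in fructose-ammonium, with nitrogen ratios in fructose of 2.19 (1.53 to 3.03), 2.32 (1.56 to 3.34) and 2.06 (1.35 to 2.97). AN5968 had 29, 1 and 4 counts in fructose-urea, fructose-ammonium and glucose-urea mycelium, and AN7488 had 27, 4 and 8, and neither was listed with a glucose-ammonium count. Their carbon ratios with urea were 3.29 (2.14 to 5.62) and 2.38 (1.37 to 3.90).

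A further 4 genes with orthologs at the vacuole membrane had 0 or 1 counts in fructose-ammonium mycelium and were past 4-fold in both comparisons that use this library. AN10193, tied to vacuolar protein processing, had 32 counts in fructose-urea and 0 in fructose-ammonium mycelium, with 37 in glucose-urea and 83 in glucose-ammonium mycelium. AN5684 had 28, 0, 44 and 95 counts, AN5000, whose orthologs act in sphingolipid synthesis, had 17, 0, 8 and 56 counts, and AN10875 had 45, 1, 24 and 53 counts in those libraries. Read against 3 counts, fructose-urea was higher than fructose-ammonium by at least 6.25-fold for AN10193, 5.47-fold for AN5684 and 3.32-fold for AN5000, and fructose-ammonium was lower than glucose-ammonium by at least 5.99-fold, 6.85-fold and 4.04-fold for the same genes. The fructose-ammonium library was also the shallowest of the 4.

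Among vacuole genes at least 4-fold lower in fructose-urea than in glucose-urea were AN11008, AN3157 and AN7682, beside vps52 and AN5768 above. AN11008 (erg1 in RefSeq), the squalene monooxygenase of ergosterol synthesis, had 0 counts in fructose-urea, 9 in fructose-ammonium, 44 in glucose-urea and 70 in glucose-ammonium mycelium, at least 8.45-fold lower in fructose-urea than in glucose-urea. AN3157, an endoplasmic reticulum and vacuole membrane protein, had 17, 49, 163 and 280 counts in those libraries and a carbon ratio of -2.42 (-3.28 to -1.74) with urea. AN7682, of the AP-1 adaptor that packs clathrin vesicles, had 9, 16, 114 and 123 counts and a ratio of -2.77 (-4.03 to -1.89). AN1148, a polyphosphatase and the vacuole gene with the highest CPM summed over libraries, a level not corrected for length, was highest in fructose-ammonium, with 394 CPM in fructose-urea, 936 CPM in fructose-ammonium, 652 CPM in glucose-urea and 723 CPM in glucose-ammonium mycelium.

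**Figure D3:**
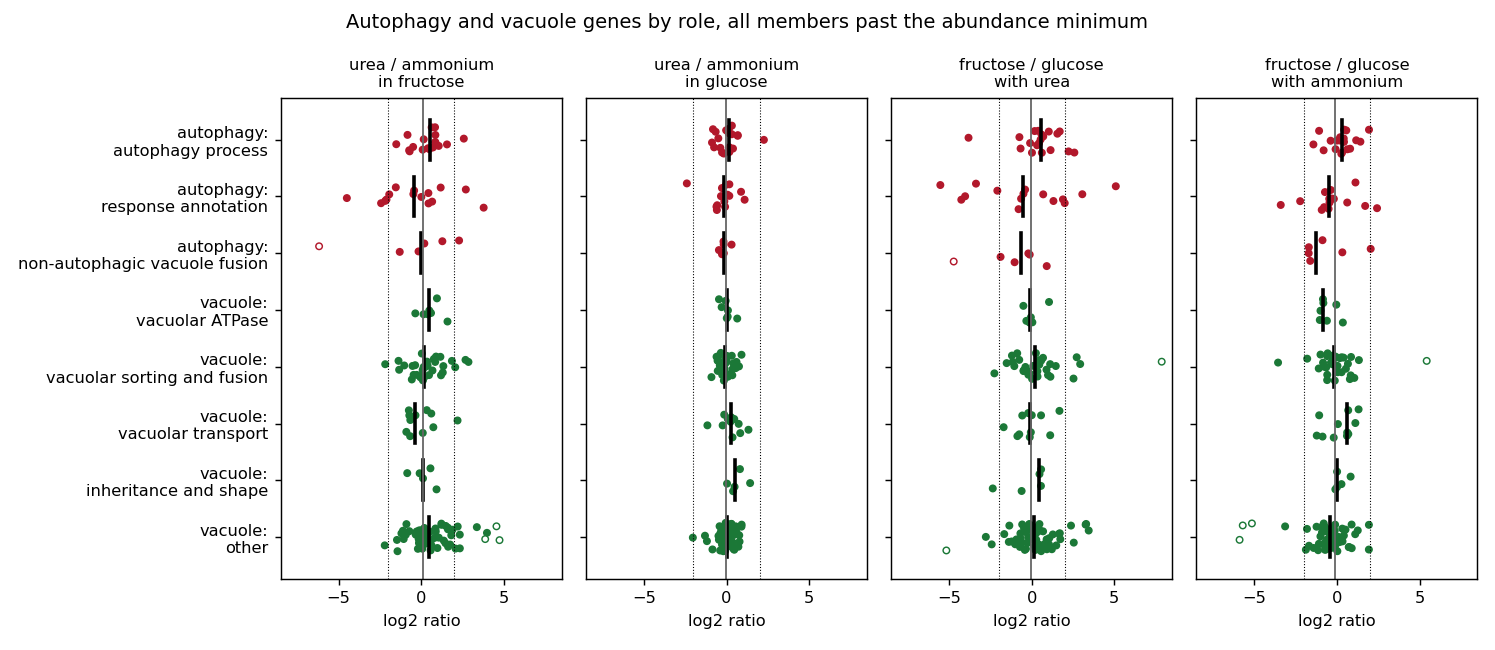
Log2 ratios (x axis) of all members past the abundance minimum, by role (rows), in 4 comparisons (panels). Each point is 1 gene, open where a count was 0, with autophagy genes in red and vacuole genes in green, the black tick is the median of a role, the grey line the median of all genes, and dotted lines mark 4-fold. Points spread least in the urea over ammonium panel in glucose, where the autophagy genes with a role have a median of 0.13, against 0.55 in the panel for fructose.

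For urea against ammonium in fructose, 13 vacuole genes reached 4-fold higher, led by AN10193, AN5684, AN10875, AN5000 and AN5968, each with 0 or 1 fructose-ammonium counts, and then by AN4018 and AN8912, and 2 reached 4-fold lower, AN3157 and vps52. Counts of this kind leave out genes whose deposited mean log2 CPM is under 3. The 13 genes are 11.2% and the 2 genes 1.72% of the 116 vacuole genes past that minimum, beside 11.4% and 11.0% of all 7203 genes. The share of higher genes was thus close to the background, and that of lower genes was below it. One of the 13, AN5000, had a bound below 4-fold. At 2-fold, 31 vacuole genes (26.7%) were higher and 10 (8.62%) lower, beside 26.0% and 23.4% of all genes. Among the 39 autophagy genes, 4 reached 4-fold higher (10.3%) and 5 lower (12.8%), and at 2-fold 8 were higher and 9 lower. With scaling by total counts these became 4 and 3 at 4-fold and 12 and 9 at 2-fold, while for all genes 822 higher and 789 lower became 927 and 682 at 4-fold. The 4 higher ones were AN8223, aldA, atg15 and AN8488, and the 5 lower ones AN8374, prxA, trpB, AN6048 and agdB. The median ratio was 0.18 for the autophagy genes, 0.29 for the vacuole genes, 0.55 for the genes with a role in autophagy and 0.07 for all genes. In the authors' deposited table, 10 of 40 autophagy genes (25.0%) and 16 of 118 vacuole genes (13.6%) had an FDR of 0.05 or less, beside 21.4% of all 7467 genes.

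For urea against ammonium in glucose, few genes of any kind differed. AN2076 was the autophagy gene at least 4-fold higher and AN8223 the one lower among 41, beside 1.34% and 0.535% of all 6354 genes. No vacuole gene was 4-fold higher, and 1 of 114, AN5000, was lower. At 2-fold, 2 autophagy genes were higher and 1 lower, and 2 vacuole genes were higher and 4 lower, beside 7.15% and 4.31% of all genes. The median was -0.13 for the autophagy genes and 0.02 for the vacuole genes. In the authors' deposited table, neither set held a gene with an FDR of 0.05 or less, beside 1.01% of all genes.

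For fructose against glucose with urea, atg15, atg11, aldA and AN8223 were the 4 of 40 autophagy genes at least 4-fold higher (10.0%), and AN2093, AN8374, AN6048, AN6630, trpB, prxA and agdB the 7 lower (17.5%), beside 14.6% and 15.2% of all 7135 genes. Of 117 vacuole genes, 9 were higher (7.69%) and 5 lower (4.27%). Both vacuole shares lay below the background. At 2-fold, 11 autophagy genes were higher and 9 lower, and 24 vacuole genes were higher (20.5%) and 14 lower (12.0%), beside 27.0% and 29.2% of all genes. With scaling by total counts, 6 autophagy genes were 4-fold higher and 6 lower, and 32 vacuole genes were 2-fold higher and 10 lower. All genes moved the same way, with 1044 higher and 1088 lower becoming 1212 and 920 at 4-fold, and 1929 and 2081 becoming 2280 and 1750 at 2-fold. Among 19 genes with a role in autophagy, 6 exceeded 2-fold higher and 1 exceeded 2-fold lower. The median was 0.25 for the autophagy genes, 0.54 for those with a role, 0.02 for the vacuole genes and -0.03 for all genes. In the authors' deposited table, 16 of 40 autophagy genes (40.0%) and 17 of 117 vacuole genes (14.5%) had an FDR of 0.05 or less, beside 37.3% of all genes.

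For fructose against glucose with ammonium, aldA and AN8374 were the 2 autophagy genes at least 4-fold higher and AN6630 and AN8223 the 2 lower among 40, beside 8.33% and 7.01% of all 6647 genes. Of 114 vacuole genes, AN8912 was higher, and 5 were lower (4.39%), namely AN6345, AN10193, AN5684, AN5000 and AN10875. At 2-fold, 7 autophagy genes were higher and 7 lower, and 9 vacuole genes were higher (7.89%) and 17 lower (14.9%), beside 19.2% and 22.6% of all genes. The median was -0.04 for the autophagy genes, -0.24 for the vacuole genes and -0.11 for all genes. In the authors' deposited table, 4 of 41 autophagy genes (9.76%) and 8 of 115 vacuole genes (6.96%) had an FDR of 0.05 or less, beside 15.3% of all genes. The comparisons share libraries in pairs, so they are not independent of each other.

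The difference between the nitrogen ratios, fructose minus glucose, had a median of 0.04 over 39 autophagy genes, 0.18 over 112 vacuole genes and -0.13 over all 6024 genes with both. It was at least 2 on the log2 scale in 12.8% of autophagy genes and 9.82% of vacuole genes, beside 7.12% of all genes, and at most -2 in 10.3% and 3.57%, beside 12.5%. A design with 1 library per condition gives no test of this difference.

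Genes that act around autophagy were taken from lists. Of 14 nutrient signalling genes, 5 (35.7%) were 2-fold or more higher and 1 (7.14%) lower in fructose-urea than in glucose-urea mycelium, beside 27.0% and 29.2% of all genes, with a median ratio of 0.71. The torA gene (AN5982), the TOR kinase, had 1126 CPM in fructose-urea, 682 CPM in fructose-ammonium, 350 CPM in glucose-urea and 330 CPM in glucose-ammonium mycelium, with carbon ratios of 1.42 (1.27 to 1.57) with urea and 1.00 (0.82 to 1.18) with ammonium. The 6 peptidase or transporter genes set aside by the word rule had medians of 0.66 for nitrogen in fructose, 0.06 for nitrogen in glucose, 0.54 for carbon with urea and -0.38 for carbon with ammonium. Among them AN8854, whose orthologs carry amino acids, had 25.8, 14.6, 47.1 and 9.59 CPM in fructose-urea, fructose-ammonium, glucose-urea and glucose-ammonium mycelium and a nitrogen ratio in glucose of 2.29 (1.68 to 3.06). The 25 further endosome and membrane fusion genes had medians of 0.18 for nitrogen in fructose and -0.14 for carbon with urea, with 12.0% past 2-fold higher and 16.0% past 2-fold lower for nitrogen, beside 26.0% and 23.4% of all genes, and 16.0% higher and 12.0% lower for carbon, beside 27.0% and 29.2%.

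Markers of autolysis, and some of those of spore-bearing structures, were higher in the fructose-urea library. The 6 carbon starvation and autolysis genes took 0.620% of sense counts in fructose-urea, 0.0782% in fructose-ammonium, 0.0154% in glucose-urea and 0.0184% in glucose-ammonium mycelium, and all 6 were at least 4-fold higher in fructose-urea than in glucose-urea, beside 14.6% of all genes. Part of this list had been described from these data before, so it is not an independent choice. The xprG gene is in this list and in the nutrient signalling list. The chitinase gene chiB (AN4871) had 2577 CPM in fructose-urea, 40.2 CPM in fructose-ammonium, 30.6 CPM in glucose-urea and 29.9 CPM in glucose-ammonium mycelium. Of 13 conidiation symbols looked for, 7 were listed, and these took 0.106%, 0.0132%, 0.00901% and 0.00698% of sense counts in fructose-urea, fructose-ammonium, glucose-urea and glucose-ammonium mycelium. The brlA gene, the regulator that starts conidiophore formation, had 16, 3 and 0 counts in fructose-urea, fructose-ammonium and glucose-urea mycelium and was not listed for glucose-ammonium, and ivoB, a conidiophore pigment gene, had 517, 9, 4 and 11 counts in the 4 libraries. The ivoB gene alone gave 517 of the 864 fructose-urea counts of the 7 genes. The pigment gene wA had 4 and 7 counts in fructose-urea and fructose-ammonium mycelium, and flbA, a regulator of development, had 7, 1, 22 and 29 counts in fructose-urea, fructose-ammonium, glucose-urea and glucose-ammonium mycelium, so neither was highest in fructose-urea. Of the conidiation genes past the minimum, 5 of 6 were at least 2-fold higher for nitrogen in fructose and 3 of 5 for carbon with urea, beside 26.0% and 27.0% of all genes. The part of autolysis and of conidiophores in the values of the autophagy and vacuole genes was not tested.

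The antisense reads give a readout that the word rule did not use. Over both strands together, 26.9% of the reads at the autophagy and vacuole genes were antisense in fructose-urea, 29.5% in fructose-ammonium, 28.5% in glucose-urea and 32.1% in glucose-ammonium mycelium, beside 24.4%, 27.6%, 26.5% and 28.8% for all genes. The subsets differed. In the same order of libraries, the vacuole genes had 20.4%, 23.3%, 22.5% and 26.3%. The genes with a role in autophagy had 18.5%, 25.0%, 23.1% and 27.9%. Both pooled shares lay below that of all genes in each library. The medians per gene, given below, did not lie below in every library. The pooled share of the genes described by a response to autophagy lay above, with 37.3%, 37.4%, 36.25% and 38.6%. A pooled share weighs genes with many reads most. In fructose-urea, aldA gave 2616 and nmt1 1811 of the 5030 antisense reads of this group. The median share per gene, over genes with at least 20 reads, was 21.1%, 23.7%, 22.8% and 27.7% for the members in those libraries, beside 20.7%, 23.5%, 23.9% and 28.0% for all genes. This median was 20.9%, 23.3%, 22.7% and 27.45% for the vacuole genes. For the genes with a role in autophagy it was 21.0%, 25.1%, 21.25% and 26.8%. For those described by a response it was 23.3%, 23.6%, 25.1% and 28.0%, nearer to all genes than their pooled share. Among the members with the highest counts, nmt1 had 40.4%, 46.3%, 45.3% and 45.6% antisense reads in fructose-urea, fructose-ammonium, glucose-urea and glucose-ammonium mycelium. The aldA gene had 42.2%, 46.8%, 50.4% and 38.5%, and AN6048 had 32.7%, 26.9%, 29.8% and 38.1%, in the same libraries. All 3 lay above the pooled share of all genes, except AN6048 in fructose-ammonium mycelium. AN5174, the predicted Atg8 ligase, had 41.2% (24.6 to 59.3) in fructose-urea, 54.5% (42.8 to 65.9) in fructose-ammonium, 62.7% (54.4 to 70.4) in glucose-urea and 68.4% (61.9 to 74.5) in glucose-ammonium mycelium. The share was the highest of the autophagy genes in both glucose libraries. In contrast, atg2 had between 10.8% and 13.3% in the 4 libraries.

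**Figure D4:**
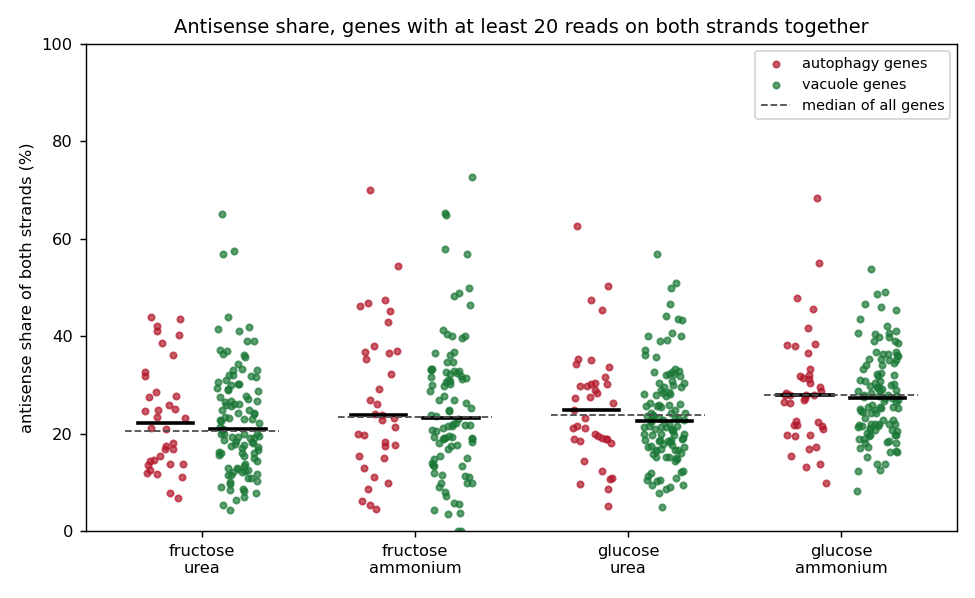
Antisense share of the reads of both strands in percent (y axis) per gene in the 4 libraries (x axis), for autophagy genes (red) and vacuole genes (green) with at least 20 reads there. Black bars are medians of each set and the dashed line is the median of all genes, which lies between 20.7% and 28.0% and close to the medians of both sets in all 4 libraries.

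Antisense and sense ratios of the same gene went along with each other to a degree that varied with the comparison. Across members with at least 20 antisense reads in both libraries together, Pearson's r between the antisense and the sense log2 ratio was 0.69 over 118 genes for nitrogen in fructose, 0.30 over 146 genes for nitrogen in glucose, 0.78 over 138 genes for carbon with urea and 0.44 over 143 genes for carbon with ammonium. Over all genes it was 0.77 for nitrogen in fructose, 0.43 for nitrogen in glucose, 0.86 for carbon with urea and 0.61 for carbon with ammonium. These are correlations across genes that share the same 2 libraries, and genes are not independent replicates.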

How the data were processed

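The 4 libraries were made from total RNA depleted of ribosomal RNA using ScriptSeq reagents, and read as paired ends, per the labels' protocols. The submitters' processing notes name HTSeq and edgeR without a version. Aligner, build and gene models are not given in the labels or the files used here. The authors deposited 8 tables, with the sense and antisense strands of each comparison apart. These give, per the file headers, whole-number read counts of 2 libraries, edgeR's log2 fold change and mean log2 CPM, and a p-value with its FDR. The deposited p-values and FDR assume a biological coefficient of variation of 0.3, as the table names say. Another 16 deposited columns, of normalised values, were not used.

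From the deposited counts, log2 ratios were computed on each whole table with TMM scaling (edgeR 4.0.16, R 4.3.3) and a prior count of 1, and counting intervals with scipy 1.17.1. Interval coverage was checked on simulated data that held counting error only, so the check does not bear on spread between cultures. Where both counts were at least 20, ratios differed from the deposited log2 fold changes, turned to the same direction, by at most 0.0827. Of the 159 members, 152 matched a RefSeq locus tag (assembly ASM1142v1), used for names only. Genome coordinates and sequences were not used here. The text names every autophagy gene but 1, which is not reported here, every vacuole gene past 4-fold in a comparison, examples of the ATPase and sorting genes with the highest and lowest ratios, and the 5 members with the highest summed CPM. The members and lists were chosen with earlier results of these data known. Of the listed symbols, 8 matched no gene. Alternatives were 3 other scalings, a prior count of 5, no abundance minimum, only genes in all 4 sense tables, and 2 changes to the gene sets chosen after seeing the data.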

Additional observations from a re-analysis of the deposited data

Results flagged for a closer look

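For 6 of the 159 genes, 2 ratios of the same kind pointed in opposite directions, each past 2-fold and with an interval that excluded 0. The same count was not made over all genes, so whether 6 is many or few is not known. These differences were not tested, since each rests on 4 single libraries. In any 1 gene, the difference of the nitrogen ratios and that of the carbon ratios combine the same 4 counts. They are 1 contrast, not 2 observations, and differ only through the scaling and prior count of each comparison. AN8223 had nitrogen ratios of 3.76 in fructose and -2.40 in glucose, a difference of 6.16, and carbon ratios of 3.06 with urea and -3.39 with ammonium, a difference of 6.45. AN5000 had nitrogen ratios of 3.86 in fructose and -2.04 in glucose, a difference of 5.89, and carbon ratios of 1.73 with urea and -5.13 with ammonium, a difference of 6.86. The fructose-ammonium count was 1 for AN8223 and 0 for AN5000, so the fitted ratios of AN5000 depend on the prior count. AN10875, with 1 fructose-ammonium count, had a carbon ratio higher by 4.78 with urea than with ammonium. For AN8374, with 0 counts in fructose-urea, the carbon ratio with urea minus that with ammonium was -6.76. The V-type ATPase gene AN9107 had a difference of 2.08 between its carbon ratios, from 1.05 with urea and -1.03 with ammonium. For agdB (AN8953), with at least 48 counts in every library, the difference of nitrogen ratios, fructose minus glucose, was -3.20.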

How the results depend on the processing

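No paired analysis was possible because each group is 1 library. For the same reason no library could be left out. Of 208 set medians and counts under the alternatives, 193 stayed within the limits set for a move. The medians near 0 changed sign: under total counts, DESeq2 size factors and TMM over all 4 libraries, that of the autophagy genes for carbon with ammonium was 0.01, 0.01 and 0.00 in place of -0.04, and that of the vacuole genes for nitrogen in glucose was -0.03 under total counts and -0.01 under TMM over all 4 libraries, in place of 0.02. With scaling by total counts, the median of all genes shifted to 0.25 for nitrogen in fructose and 0.29 for carbon with urea. In that scaling 4 autophagy genes reached 4-fold higher and 3 lower for nitrogen in fructose, not 5 lower, and 6 higher and 6 lower for carbon with urea, not 4 and 7. At 2-fold, 32 vacuole genes were then higher and 10 lower for carbon with urea, not 24 and 14, and the carbon ratios with urea of vmaA and AN1973 turned to 0.14 and 0.15, from intervals that include 0. With a prior count of 5, 1 autophagy gene was 4-fold higher for carbon with ammonium, and 0 vacuole genes were 4-fold lower for nitrogen in fructose and 0 for nitrogen in glucose. For carbon with ammonium, 2 vacuole genes were 4-fold higher with no abundance minimum and 0 with only genes in all 4 tables, where AN8912 is not among them. With the 6 non-autophagic fusion genes counted as vacuole genes, 1 autophagy gene and 2 vacuole genes were 4-fold higher for carbon with ammonium, and the autophagy median there was 0.09. With only the genes that have a role in autophagy, the median for nitrogen in glucose was 0.13 and that for carbon with ammonium 0.31, and 1 gene was 4-fold higher and 0 lower for nitrogen in fructose, 0 lower for nitrogen in glucose, 2 higher and 1 lower for carbon with urea, and 0 higher and 0 lower for carbon with ammonium. These changes of the sets were chosen after seeing the data. Depth limits the low genes most: 10 counts in fructose-ammonium are 18.3 CPM.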
